A study of Homo sapiens with 2 samples.

Results

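The genes examined were the nuclear genes for the subunits of oxidative phosphorylation, the 5 protein complexes of the inner mitochondrial membrane. They were chosen by gene name alone among the protein-coding genes of GENCODE 44 on chromosomes 1 to 22 and X, and 90 of 19970 genes met the rule. Complex I had 38 of these members, complex II 4, complex III 10, complex IV 19 and complex V 19. NDUFA4 and NDUFA4L2, which carry a complex I name by history, were counted with complex IV. The rule also took in 2 readthrough genes (NDUFC2-KCTD14 and ATP5MF-PTCD1) and 2 intronless copies (UQCRHL and ATP5MGL).

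The data were 2 biological replicates of J.gamma1 cells with no treatment named, an established Jurkat derivative lacking phospholipase C gamma 1 and a model of T-cell acute lymphoblastic leukemia (T-ALL). NUDT21 on their chromatin was profiled by CUT&Tag. In CUT&Tag an antibody tethers a transposase to chromatin, and the fragments it cuts free are sequenced. Both replicates formed 1 group with no control sample, so these data allowed no comparison between conditions and no test. On chromosomes 1 to 22 and X, replicate 1 had 92638 peaks with a median of 30 fragments at the summit, and replicate 2 had 66642 peaks with a median of 20.

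Oxidative phosphorylation passes electrons from NADH and succinate through complexes I to IV to oxygen and uses the resulting proton gradient at complex V to make ATP. Most subunits are encoded in the nucleus and must be made in step with the few encoded in mitochondrial DNA, and many of their promoters are known to be read by NRF1, by ETS family factors such as GABPA, and by YY1 and SP1. NUDT21 (CFIm25) is a subunit of cleavage factor Im, which binds UGUA in RNA near polyadenylation sites.

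Promoter stretches of 9 members are shown as examples, because whether a member had a NUDT21 peak differed most within complex IV and moved with base composition. The first 6 members had a summit within 500 bp of an own start in both replicates, and the last 3 had no promoter peak in either. Each stretch is RefSeq sequence upstream of the start (GRCh38.p14), 5′ to 3′ along the gene. Capitals mark matches on either strand to the ETS word CCGGAAG, the NRF1 word GCGCATGCG or TGTA, the DNA form of UGUA. A match printed as TACA is TGTA on the opposite strand and would not read UGUA in RNA of the gene itself. All of the first 6 stretches hold the ETS or the NRF1 word, which is not typical of members with peaks. Stretches of NDUFA10, NDUFA12 and COX5A, which also had peaks in both replicates, hold neither. In the promoter windows searched below, 22 of the 70 members with both held the ETS word and 9 the NRF1 word. Of the 14 members with no peak, 0 held either word.
NDUFB7: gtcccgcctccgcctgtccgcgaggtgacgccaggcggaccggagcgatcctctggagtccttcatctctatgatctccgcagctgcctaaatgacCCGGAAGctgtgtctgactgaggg
UQCR11: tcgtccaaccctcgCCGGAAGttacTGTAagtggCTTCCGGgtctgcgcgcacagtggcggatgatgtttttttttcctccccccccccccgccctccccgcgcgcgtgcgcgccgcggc
COX5B: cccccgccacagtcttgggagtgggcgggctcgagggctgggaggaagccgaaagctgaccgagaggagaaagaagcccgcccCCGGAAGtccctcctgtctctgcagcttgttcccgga
COX6B1: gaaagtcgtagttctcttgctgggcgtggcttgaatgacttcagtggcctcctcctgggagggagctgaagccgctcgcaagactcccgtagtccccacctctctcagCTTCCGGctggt
COX8A: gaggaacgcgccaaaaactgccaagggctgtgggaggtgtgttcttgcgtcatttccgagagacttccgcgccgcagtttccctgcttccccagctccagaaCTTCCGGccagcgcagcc
ATP5MC2: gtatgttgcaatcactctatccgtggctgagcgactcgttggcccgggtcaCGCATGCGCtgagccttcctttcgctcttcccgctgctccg
NDUFS4: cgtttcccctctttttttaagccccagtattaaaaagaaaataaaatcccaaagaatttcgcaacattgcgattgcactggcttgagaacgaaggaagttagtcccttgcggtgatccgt
COX7B: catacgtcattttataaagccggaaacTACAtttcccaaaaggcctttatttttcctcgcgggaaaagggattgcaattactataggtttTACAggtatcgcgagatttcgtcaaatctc
COX7C: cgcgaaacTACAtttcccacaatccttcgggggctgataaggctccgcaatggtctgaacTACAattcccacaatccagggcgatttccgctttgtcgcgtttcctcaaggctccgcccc
The genome positions of these stretches were chr19:14572067-14572186 (minus strand) for NDUFB7, chr19:1605474-1605593 (minus strand) for UQCR11, chr2:97645942-97646061 (plus strand) for COX5B, chr19:35648203-35648322 (plus strand) for COX6B1, chr11:63974500-63974619 (plus strand) for COX8A, chr12:53676084-53676175 (minus strand) for ATP5MC2, chr5:53560513-53560632 (plus strand) for NDUFS4, chrX:77899320-77899439 (plus strand) for COX7B and chr5:86617808-86617927 (plus strand) for COX7C.

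A promoter peak of a gene was a peak that reached to 3000 bp or less from one of its annotated transcript starts. By this rule 70 of the 90 members had a promoter peak in both replicates, 77.8% (95% Wilson interval 68.2 to 85.1, which covers counting error only), beside 57.2% of all 19970 protein-coding genes. A further 6 members had a peak in replicate 1 only, none in replicate 2 only, and 14 had no peak in either. Of all 19970 genes, 2548 had one in replicate 1 only, 178 in replicate 2 only and 5826 in neither. In replicate 1 alone, 76 members had a peak beside 69.9% of all genes, and in replicate 2 alone 70 members beside 58.1%. When the summit itself had to lie within 500 bp of an own start in both replicates, 60 members passed, beside 43.7% of all genes. Members are not replicates of each other, and a peak is a position of the antibody signal and not a level of expression.

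The complexes differed in how many of their genes had a peak. All 19 members of complex V, the ATP synthase, had promoter peaks in both replicates (Wilson interval 83.2 to 100%). All 4 members of complex II, succinate dehydrogenase, did as well (51.0 to 100%). In complex I, the NADH dehydrogenase, 30 of 38 members had both (78.9%, 63.7 to 88.9). In complex III, the cytochrome bc1 complex, it was 7 of 10 (70.0%, 39.7 to 89.2), and in complex IV, cytochrome c oxidase, 10 of 19 (52.6%, 31.7 to 72.7). The interval of complex V lay above that of complex IV, while the intervals of complexes I, II, III and IV overlapped each other. These intervals cover counting error only and are no test between complexes, as genes are not replicates. With the summit itself required within 3000 bp, complex V had 17 of 19 (68.6 to 97.1%) and complex IV 10 of 19 (31.7 to 72.7%), and within 500 bp they had 15 (56.7 to 91.5%) and 9 (27.3 to 68.3%). The intervals overlapped under both of these rules. Of the 14 members with no peak, 8 were among the 19 of complex IV, while 5826 of all 19970 genes had none.

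**Figure D1:**
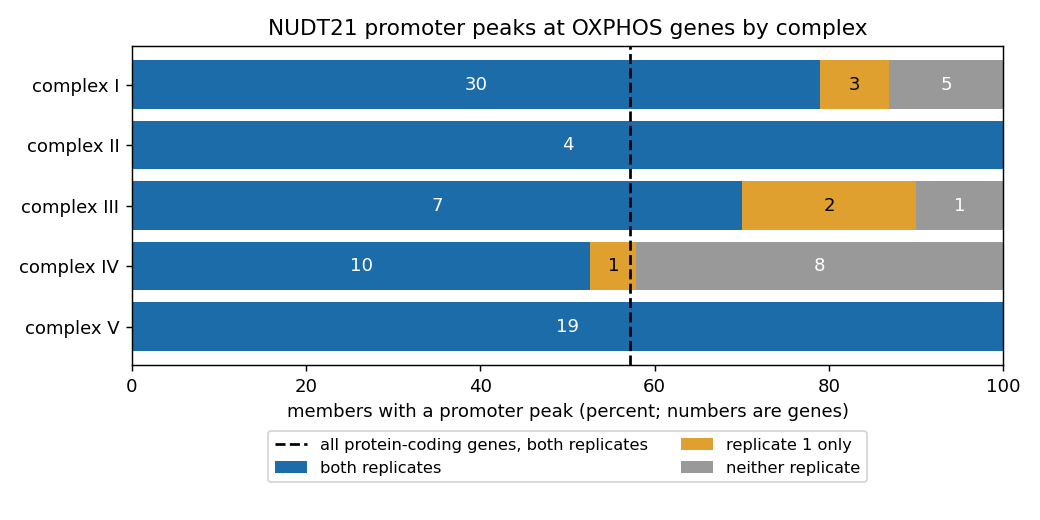
Share of the members of each complex with a promoter peak in both replicates, in replicate 1 only or in neither (percent of members, with the number of genes printed in each bar). The dashed line is the same share over all protein-coding genes, 57.2%. The bars of complexes II and V are filled by peaks in both replicates, and 8 of the 19 members of complex IV had none.

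The strength of a peak was its fold, the deposited enrichment at the summit over the local background, and was compared between replicates as a percentile within each list of peaks. The strongest promoter peak of a member had a median fold of 6.09 in replicate 1 (n = 76 genes) and 5.39 in replicate 2 (n = 70 genes). All protein-coding genes with a promoter peak had 5.64 and 5.46. The median percentile of the members was 86.5 in replicate 1 and 77.0 in replicate 2, beside 82.4 and 77.9 for all genes. The peaks of the members were therefore close in strength to those of other genes. Across the 70 members with both, Spearman's rho of the folds of the replicates was 0.783, beside 0.804 across 11418 genes, as a description over genes of the same 2 libraries.

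**Figure D2:**
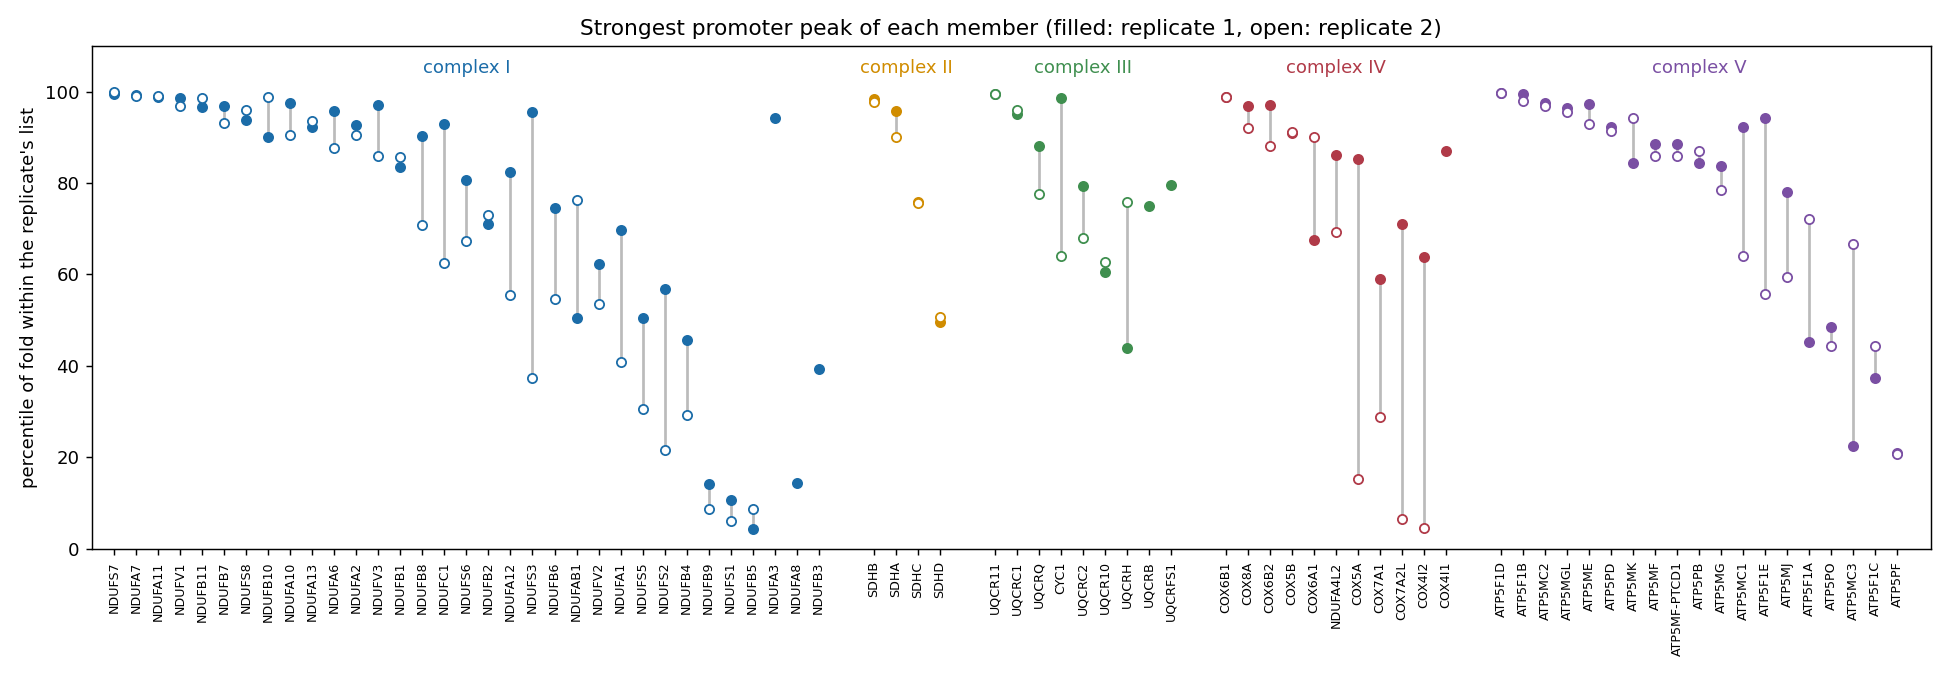
Percentile of the fold of the strongest promoter peak of each member within the list of its replicate (y axis, percent of peaks), for the 76 members with a peak, ordered within each complex by the mean of both replicates. Filled points are replicate 1, open points replicate 2, and a member with a filled point alone had no peak in replicate 2. Strong members such as NDUFS7, UQCR11, COX6B1 and ATP5F1D had both points near the top, and COX5A, COX7A2L and COX4I2 had points far apart.

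In complex I the strongest peaks were at NDUFS7, NDUFA7 and NDUFA11. NDUFS7, the core subunit with the last iron-sulfur centre before ubiquinone, had a fold of 15.8 in replicate 1 (96 fragments) and 17.3 in replicate 2 (57 fragments). NDUFA7, an accessory subunit, had 13.7 and 11.6. Its start lies 121 bp from that of RPS28, a ribosomal protein gene read the other way, and RPS28 had the annotated start nearest to the summit in both replicates. NDUFA11, an accessory subunit of the membrane arm, had 12.4 and 11.9, with 375 and 237 fragments over a high local background of 27.0 and 18.9. These 3 members stood above the 98th percentile of both lists.

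Other core subunits of complex I had strong and weak peaks alike. NDUFV1, which binds FMN and takes electrons from NADH, had a fold of 11.8 in replicate 1 and 8.72 in replicate 2, at summits 276 bp upstream and 2541 bp downstream of a start. These were different peaks, and the summit of replicate 2 was nearest to a start of DOC2GP. The peak of NDUFV1 nearest to a start had 4.50 and 8.10. NDUFS1, the largest iron-sulfur subunit, had 2.68 and 2.80, at percentiles 10.6 and 6.01. The weakest member with both was NDUFB5, an accessory subunit of the membrane arm, with 2.37 and 2.91. Both of these weak peaks lay at the start, within 69 bp in each replicate.

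All subunits of complex II had peaks at a start in both replicates. SDHB, the iron-sulfur subunit, had a fold of 11.5 in replicate 1 and 9.55 in replicate 2, with summits 13 and 7 bp upstream of the start. SDHA, the flavoprotein that oxidizes succinate, had 8.51 and 6.72 at an internal start of the gene. SDHC and SDHD anchor the enzyme in the membrane, and SDHC had 5.13 and 5.32. SDHD had 3.95 and 4.24, with summits 51 and 80 bp downstream of a start, and its start lies 117 bp from that of TIMM8B, a chaperone of mitochondrial protein import. The peak of SDHA nearest to a start had 2.62 and 6.49, so by that peak it was the weakest of the 4 genes in replicate 1 and second to SDHB in replicate 2. SDHB had the strongest peak of the complex in both replicates by either measure.

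In complex III the strongest peak lay at UQCR11, a small accessory subunit, with a fold of 15.9 in replicate 1 and 13.3 in replicate 2. UQCRC1, a core subunit, had 8.21 and 8.32, and UQCRQ, a small subunit, had 6.33 and 5.43. CYC1, cytochrome c1, had 12.1 and 4.73, at percentiles 98.7 and 64.0, in a peak that covered the whole gene in each. The lowest member with both was UQCRH, the hinge protein, with 3.76 and 5.33. UQCRFS1, the Rieske iron-sulfur protein, had a peak of fold 5.39 and 34 fragments in replicate 1 only, and the nearest peak of replicate 2 lay 53256 bp away. UQCRB, a small subunit near the ubiquinone site, had 5.08 and 54 fragments in replicate 1 only.

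In complex IV the strongest peaks belonged to COX6B1, COX8A and COX6B2. COX6B1, which faces the intermembrane space, had a fold of 12.9 in replicate 1 and 11.0 in replicate 2, but the summits lay 3677 and 3662 bp upstream, nearest to a start of ETV2, an ETS factor gene. The peak of COX6B1 nearest to its own start had 8.31 and 7.46, with summits 124 and 141 bp downstream. COX8A had 9.38 at its start in replicate 1 and 7.13 at 2935 bp upstream in replicate 2, where the peak nearest to the start had 4.90. COX4I1, the isoform of subunit 4 made in most tissues, had 6.16 and 39 fragments in replicate 1 only.

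The 3 largest differences between replicates were in complex IV, and NDUFS3 of complex I followed closely, at percentiles 95.6 and 37.4. COX5A, a subunit at the matrix side, stood at percentile 85.3 in replicate 1 and 15.2 in replicate 2 (SD 49.6, n = 2). COX7A2L, which takes part in joining complexes III and IV, stood at 71.1 and 6.54. COX4I2 stood at 63.7 and 4.41, in different peaks that did not overlap. In each of these 3 members of complex IV the lower value was in replicate 2, the list with fewer fragments. Replicate 2 had 18, 27 and 15 fragments at these peaks, and replicate 1 had 57, 62 and 35.

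In complex V all nuclear members had promoter peaks in both replicates, and 15 of the 19 had summits within 500 bp of a start in both. ATP5F1D, the delta subunit, had the highest fold of any member in replicate 1, 17.1, and 14.3 in replicate 2. Its peaks were broad, 28700 bp in replicate 1 and 8549 bp in replicate 2, and covered the whole gene, with summits 9217 bp downstream and 1478 bp upstream of the start. ATP5F1B, the catalytic beta subunit, had 15.5 and 9.74, with summits 3211 and 3099 bp from an own start and nearest to BAZ2A, a chromatin remodelling gene. The peak nearest to a start of ATP5F1B had 4.50 and 4.12. ATP5F1A, the alpha subunit, had 3.81 and 5.10, at 14 bp upstream of a start in each.

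The c subunits, which form the rotating ring, are encoded by 3 genes with the same mature protein and were compared after their values had been seen. ATP5MC2 had a fold of 10.1 in replicate 1 and 8.83 in replicate 2, ATP5MC1 had 7.19 and 4.73, and ATP5MC3 had 3.09 and 4.86. The order of ATP5MC1 and ATP5MC3 turned between replicates, and ATP5MC2 was highest in both. The lowest member of complex V was ATP5PF, coupling factor 6, with 3.04 and 3.34. It starts 68 bp from GABPA, which encodes the DNA-binding subunit of a factor of these promoters, and the same peak was the strongest of both genes.

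The 14 members without a peak in either replicate were NDUFA5, NDUFA9, NDUFC2, NDUFC2-KCTD14 and NDUFS4 of complex I, UQCRHL of complex III, and COX6A2, COX6C, COX7A2, COX7B, COX7B2, COX7C, COX8C and NDUFA4 of complex IV. COX7C, a small subunit made widely across tissues, had its nearest peak 649807 bp away in replicate 1 and 1067478 bp away in replicate 2. For NDUFS4, an accessory subunit of the electron input arm, the distances were 871393 and 1338995 bp. COX7A2 had 343276 and 1721883 bp. These genes lay in long stretches without peaks. COX7B differed, with peaks 3774 and 3923 bp away that fell just outside the limit of 3000 bp. COX6A2 and UQCRHL also had their nearest peaks within 6901 bp in both replicates.

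Peaks in the neighbourhood of each gene were then counted, leaving out its own promoter peaks. Within 500000 bp on either side, the 70 members with both had a median of 107 other peaks in replicate 1 and 79 in replicate 2. The 14 members with none had 7 and 2.5. Over all protein-coding genes the medians were 113 and 79 for genes with both and 6 and 3 for genes with none. Of the 38 members with 105 to 349 other replicate 1 peaks nearby, 35 had promoter peaks in both replicates (92.1%), beside 91.5% of all genes with as many. Of the 20 members with 0 to 13, 11 had both (55.0%), beside 22.1% of all genes. The members with few neighbouring peaks thus stood further above other genes than those with many did, in counts that were not tested. Where 91.5% of all genes had both, little room was left for members to stand higher, so the 2 gaps are not alike.

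**Figure D3:**
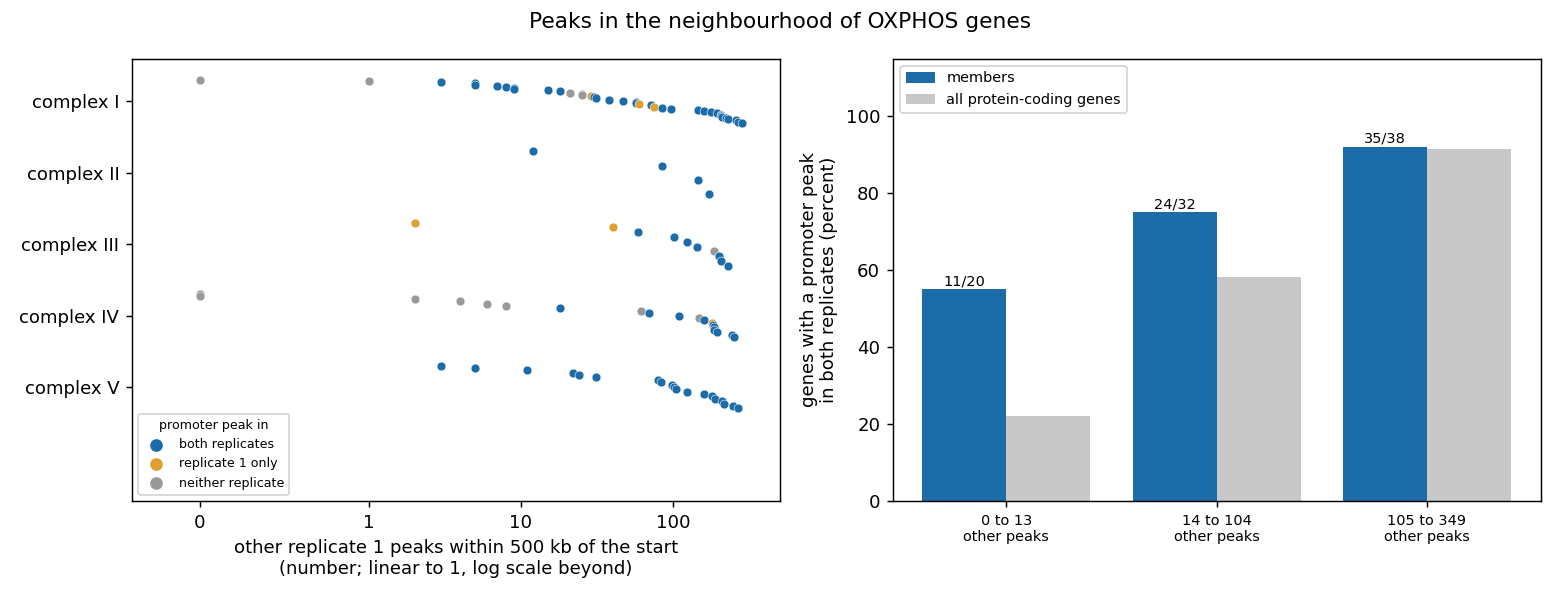
Left, number of other replicate 1 peaks within 500000 bp of the start of each member (x axis, log scale beyond 1), by complex and coloured by where the promoter peak was found. Right, percent of members (blue) and of all genes tested (grey) with promoter peaks in both replicates, in tertiles of all genes by that number, with member counts above the bars. Members without a peak lie mostly to the left, and the bars of members and of all genes meet in the tertile with most peaks.

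Base composition moved with the same split. Windows of 300 bases (250 before and 50 after) were taken at the RefSeq start, or at the canonical start where RefSeq gave none. Median GC there was 62.0% in the 70 members with both and 48.3% in the 14 with none. It was 62.0% in the 6 with a peak in replicate 1 only. In all genes it was 65.3% with both and 52.3% with none. Of the 16 members in the lowest GC quintile of all genes (at most 51.3%), 5 had both (31.2%), beside 21.2% of all genes there. Of the other 74 members, 65 had both (87.8%), beside 66.4%. The lowest quintile held 6 members of complex IV, none of which had both, and 4 of complex III, of which 3 had both. Among the 13 other members of complex IV, 10 had both, and the parts of GC, of the neighbourhood and of the complex itself in the difference were not tested. Above the lowest quintile, the members of complex IV without both were COX4I1, COX6A2 and COX8C. Some windows were not at the canonical start. The RefSeq stretch of NDUFA5, a member with none, began at position 123601652, upstream of its GENCODE gene, which ends at 123557904 on the minus strand. Its GC is thus not that of a start searched for peaks. The stretch of COX7A2, also with none, began at 75250324, while its canonical start is 75243801.

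**Figure D4:**
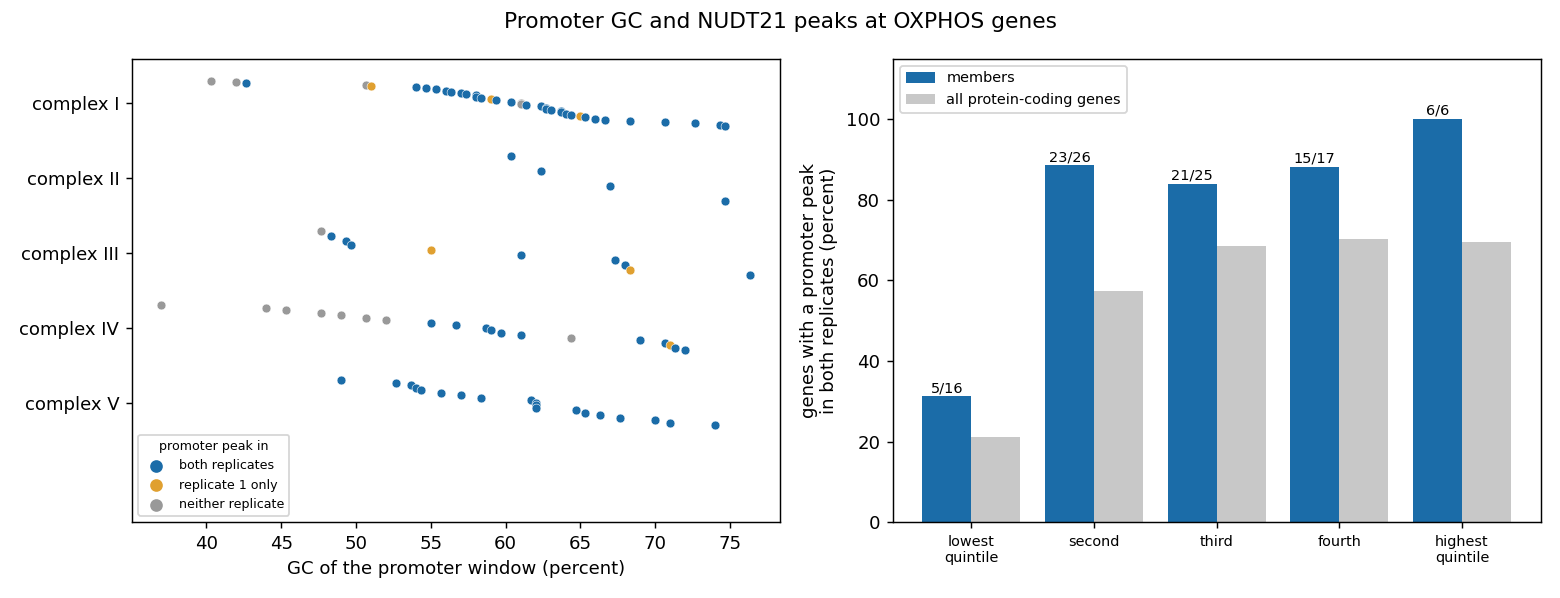
Left, GC of the promoter window of each member (x axis, percent), by complex and coloured by where the promoter peak was found. Right, percent of members (blue) and of all genes tested (grey) with promoter peaks in both replicates in each quintile of all genes by GC, with member counts above the bars. Most members without a peak lie at or below 52.0%, and the bars of members are higher than those of all genes in each quintile.

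Summits lay close to starts. The strongest summit of a member was a median of 149 bp from the nearest own start in replicate 1 and 187 bp in replicate 2, beside 211 and 310 bp over all genes with a promoter peak. In replicate 1, 64 of 76 summits lay within 500 bp of an own start (84.2%, beside 66.9% of all genes), and in replicate 2, 53 of 70 (75.7%, beside 59.2%). Of the summits within 500 bp, 34 were upstream and 30 at or downstream in replicate 1, and 24 and 29 in replicate 2. In 57 of the 70 members with both, the strongest peaks of the 2 replicates overlapped (81.4%, beside 71.1%). The start nearest to the summit belonged to the member itself in 49 of 76 cases in replicate 1 (64.5%, beside 74.7% of all genes) and 51 of 70 in replicate 2 (72.9%, beside 73.7%).

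**Figure D5:**
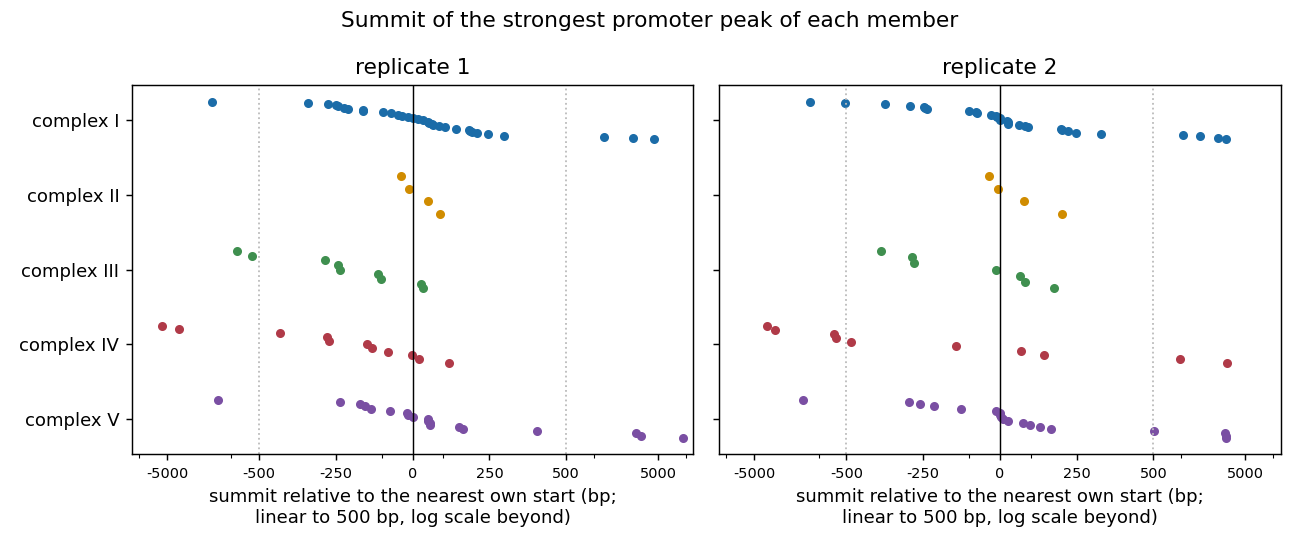
Position of the summit of the strongest promoter peak of each member relative to its nearest own transcript start (x axis, bp along the gene, linear to 500 bp and log scale beyond), by complex and replicate. Each point is 1 gene, dotted lines mark 500 bp, and most points of every complex lie between them.

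OXPHOS promoters were often shared with other genes. A protein-coding gene read the other way started within 1000 bp of 25 members (27.8%), beside 9.49% of all genes. Of these 25 members, 21 had a peak in both replicates (84.0%, beside 84.4% of all such genes), and of the other 65, 49 did (75.4%, beside 54.3%). Among the 28 members with no start of any other gene within 3000 bp, 22 had both (78.6%), beside 43.6% of such genes. A count made on members with no neighbouring start was thus close to that on all members. A promoter peak also covered the 3′ end of 9 of the 90 members in both replicates, beside 6.51% of all genes. Members were shorter, with a median length of 12212.5 bp beside 27476.5 bp of all genes, and the part of length was not tested. The 9 members were NDUFA11, NDUFB10, NDUFS7, NDUFS8, NDUFV1, CYC1, UQCRC1, COX8A and ATP5F1D, with lengths from 1924 to 12731 bp. In 3 of them, NDUFB10, CYC1 and ATP5F1D, 1 peak covered both the canonical start and the end in each replicate, so signal at the start and at the end cannot be told apart there. At COX8A this was so in replicate 1 only, and in the other 5 no peak covered both.

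Motifs were searched on both strands of the same windows of 300 bases. The ETS word occurred in 23 members, beside 13.7% of all genes, and 22 of these 23 members had peaks in both replicates, the exception being COX4I1. Of the 2744 genes with the word in all, 73.3% had both. The NRF1 word occurred in 10 members, beside 2.62% of all genes, and 9 of them had both, beside 79.6% of all genes with the word. The YY1 word AAGATGGCG occurred in 10 members, beside 2.65%, and 8 had both, beside 78.3%. Of the 14 members without a peak, 0 held the ETS word and 0 the NRF1 word, beside 6.44% and 0.875% of all genes without a peak, and 2, NDUFA9 and NDUFS4, held the YY1 word, beside 0.944%. The SP word GGGCGG, part of many GC-rich promoters, occurred in 52 members, beside 58.7% of all genes, and 45 had both (86.5%, beside 67.7%). Among members without the word, 71.6% had both for ETS, 76.2% for NRF1, 77.5% for YY1 and 65.8% for SP. Over all genes without the word, these shares were 54.6%, 56.6%, 56.6% and 42.2%.

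TGTA occurred in 51 members, beside 51.5% of all genes. Of the members with it, 35 of 51 had both peaks (68.6%), and of those without it, 35 of 39 (89.7%). Over all genes the shares were 49.6% and 65.2%. TGTA was present in 11 of the 14 members with no peak, among which GC was low, beside 66.5% of all genes with no peak. The Wilson interval of the members, 52.4 to 92.4%, covered that share. A match is a description of the sequence and not a binding site. In the printed stretches, COX7B and COX7C held a word in common, TACANTTCC, noticed after the sequences had been read. It occurred in 3 members, COX7B, COX7C and ATP5PO, beside 1.78% of all genes, and at like shares of all genes with both peaks (1.85%) and with none (1.73%).

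For 8 subunits a widely used isoform or copy and a tissue-restricted or intronless one were compared. Of the widely used genes, 4 of 8 had promoter peaks in both replicates, and of the restricted ones, also 4 of 8, beside 57.2% of all protein-coding genes. With a summit within 500 bp of a start in both replicates, it was 3 of 8 in each, beside 43.7%. COX6A1 and COX8A had both, and COX6A2 of heart and muscle and COX8C of testis had none. UQCRH had both and its intronless copy UQCRHL none. The opposite held for COX7A2 and COX7A1 and for NDUFA4 and NDUFA4L2. COX7A2 and NDUFA4, made in most tissues, had none, while COX7A1 of heart and muscle had 4.28 and 3.60 and NDUFA4L2, known for its induction by hypoxia, had 6.03 and 4.98. The replicate 2 summit of COX7A1 lay 3175 bp downstream, and its peak nearest to a start there had 3.47. COX6B1 and COX6B2 of testis both had peaks, with 9.43 and 6.42 at COX6B2, where the summit of replicate 1 lay 5638 bp upstream and the peak nearest to a start had 7.73 and 5.82, and COX7B and COX7B2 both lacked them. COX4I2, the subunit 4 isoform of lung, had 4.47 in replicate 1, with the summit 1 bp upstream of a start. In replicate 2 it had 2.73 in a different peak that did not overlap, with the summit 978 bp downstream. Near its start COX4I2 thus had a summit in replicate 1 only. Its widely used partner COX4I1 also had a peak in replicate 1 only.

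Other genes of the pathway were counted by the same rule, by which 57.2% of all protein-coding genes had peaks in both replicates. Of 44 assembly factors, which build the complexes but are not part of them, 33 had a promoter peak in both replicates (75.0%, Wilson interval 60.6 to 85.4). Of 12 regulators, 8 did (66.7%, 39.1 to 86.2), with folds of 18.0 and 6.08 at YY1, 8.63 and 8.80 at ESRRA, and 12.6 and 9.27 at POLRMT, the mitochondrial RNA polymerase. PPARGC1A, a coactivator of mitochondrial biogenesis, had no peak, and NRF1 and TFAM, which packages mitochondrial DNA, had 3.41 and 2.58 in replicate 1 only. As a check of the cell label, 7 of 10 T-cell marker genes had both, and 6 of 10 markers of other blood cells did, beside the same 57.2% of all genes. The count of genes with peaks thus did not separate the cell types. Among T-cell markers with a peak, the median percentile was 90.8 in replicate 1 (n = 7 genes) and 93.2 in replicate 2 (n = 8 genes). For the other markers it was 65.3 and 63.3 (n = 6 genes in each), beside 82.4 and 77.9 for all genes. This difference in strength was not tested. Neither replicate had a peak on the mitochondrial chromosome.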

How the data were processed

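According to the study's methods and the labels, the authors trimmed reads with fastp, aligned them to hg38 with Bowtie2 2.2.5, removed duplicates with Picard and called narrow peaks in each replicate apart with MACS3 3.0.1. Peak-calling parameters, any control library and read totals are not given in the sources used here. For each peak the authors deposited a fold enrichment at the summit (a ratio over the local background), a −log10 p and a −log10 q. The deposited score, the −log10 q scaled to a whole number, was not used.

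Starts came from GENCODE 44, and peaks on chromosomes 1 to 22 and X were assigned to every gene with a start within 3000 bp of the peak. The strongest peak of a gene was that with the highest fold. Fragments at the summit were solved from the fold and −log10 p, tested on simulated data, and came out whole within 0.01 fragment for 99.98% of peaks in replicate 1 and 99.997% in replicate 2. Promoter windows came from RefSeq for 70 of 90 members (15321 of 19970 genes) and otherwise from hg38 at the canonical start. RefSeq windows were matched by chromosome and gene symbol, with no check of their position against the GENCODE starts. Scripts used Python 3.11.15, numpy 2.4.6 and scipy 1.17.1.

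Named members were those without a peak in 1 or both replicates, the 3 strongest and the weakest of each complex, 10 core subunits, both members of each isoform pair and the 3 with the largest difference between replicates. The members, lists and words were chosen with earlier results of these data known. No test was run, because 2 samples of 1 group allow none.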

Additional observations from a re-analysis of the deposited data

Results flagged for a closer look

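Peaks on sequences other than chromosomes 1 to 22 and X lay outside the comparisons. There were 4524 in replicate 1 and 1890 in replicate 2, of which 84 and 29 were on chromosome Y and the rest on unplaced or alternative sequences. None was on the mitochondrial chromosome, which holds the subunits of oxidative phosphorylation that are encoded in mitochondria. They were noted as signal in data that no comparison used, and with no control sample no level could be set beside them.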

How the results depend on the processing

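No paired analysis was possible because there was 1 group only. Of 110 alternative values, 87 stayed within the limits set for a change and 23 moved. For counts the limit was a factor of 1.5. Keeping from each replicate the 10000 peaks highest in −log10 p left 32 members with both, namely 13 of complex I, 1 of II, 3 of III, 4 of IV and 11 of V, beside 24.7% of all genes, and median percentiles of 95.4 and 93.0. With −log10 q of at least 5, complex IV had 6 of 19 members with both, beside 49.5% of all genes. By that limit the median percentile of replicate 2 was 86.0. Ranked by −log10 p it was 86.5. Among genes with no other start nearby, 22 of 28 members had both (78.6%, beside 77.8% of all 90 members and 43.6% of such genes). By complex it was 7 of 9 in complex I, 2 of 2 in II, 1 of 2 in III, 8 of 11 in IV and 4 of 4 in V. These were judged as counts, so having fewer members was enough to mark a value as moved. Median summit distances were 180.5 and 218 bp from canonical starts and 104 and 144 bp for the peak nearest to a start. A window of 500 bases before to 100 after the start held the SP word in 72.2% of members and TGTA in 88.9%, beside 68.5% and 79.0% of all genes. The 2 other rules, summits within 500 bp (60 members) and members without readthrough genes and intronless copies (68 of 86), were chosen after seeing the data. Each replicate alone gave 76 and 70 members. The absolute depth is unknown, and replicate 2 had fewer fragments per peak, so a peak missing there cannot be told apart from one below its threshold.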
